A study of Mus musculus with 10 samples.

Results

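The 2414 regions described here were open in cells at day 6 and day 9 of reprogramming and were listed as open at no other stage examined. They were chosen by measured values: overlapping peaks of all 10 peak lists were merged into 208851 regions, and a region was kept if it overlapped, by at least 1 bp, a peak in both DAY6 lists and both DAY9 lists and no peak in any MEF, DAY3 or ESC list. The rule picked 1.16% of all regions. The presence or absence of peaks is therefore the selection itself and is given as a description, as are the peak heights in the same lists. Chromatin accessibility was measured by ATAC-seq, in which a transposase inserts sequencing adapters into open DNA, and the values come from 1 deposited peak list per library. The MEF libraries are mouse embryonic fibroblasts of the genotype OKSM Col1a1/M2rtTA ROSA26 on a C57BL/6 x 129 background, in MEF medium without doxycycline. The DAY3, DAY6 and DAY9 libraries are from fibroblasts of the same genotype and strain after 3, 6 and 9 days in ESC medium with 1 µg/ml doxycycline and 50 µg/ml ascorbic acid. Only the DAY6 and DAY9 cells were sorted, for the surface antigen SSEA1. The ESC libraries are the V6.5 line of C57BL/6 x 129 origin, which lacks the cassette and was grown on irradiated feeder cells in ESC medium. Each of the 5 stages has 2 libraries, and all carry 1 batch name. Because only day 6 and day 9 were sorted, time and sorting cannot be told apart for these regions. ESC differs from day 9 in sorting, cassette, doxycycline and feeder cells as well as in state.

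In this system doxycycline turns on Oct4, Klf4, Sox2 and Myc together from a cassette in the Col1a1 locus. Oct4, Klf4 and Sox2 can bind closed chromatin, fibroblast enhancers close over time, and a minority of cells gains epithelial and then pluripotent features. SSEA1 is a carbohydrate antigen that appears on intermediates before the endogenous pluripotency network is fully active. A region that is open only in such intermediates is called transient here, as a name for its pattern in the lists and not for a function. ATAC-seq peaks mark promoters, enhancers, insulators and other accessible DNA without telling them apart.

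Few of the transient regions lay at gene starts, and the promoters among them show what DNA was accessible there. The sequences below are RefSeq promoter windows of build GRCm38.p6 (the mm10 genome of the lists), from 250 bases before to 50 after a transcription start, each lying wholly inside a transient region. They are written 5′ to 3′ along the gene, and capitals mark matches to the motifs searched. Elf1, which encodes an ETS family transcription factor, has a window at chr14:79515424-79515723 on the plus strand that starts a transcript inside the gene. It holds the octamer ATGCAAAT, bound by OCT factors, on the opposite strand from base 147, and the AP-1 motif TGANTCA from base 228. Cnksr1, a scaffold protein of the Ras pathway, has its window at chr4:134238350-134238649 on the minus strand, with an AP-1 motif from base 81 and an E-box CACGTG from base 215. Plch1, a phospholipase C, has its window at chr3:63851236-63851535 on the minus strand, and none of the motifs was found in it. Gm40367 is a predicted gene on chromosome 6 with its window at chr6:47662342-47662641 on the plus strand. Its sequence is shown because it is repeated in the genome: the windows of Gm36327 and Gm40364, which also lie in transient regions, are identical to it over all 300 bases. So is a window of Gm40369, whose start lies in a region that missed the rule by a peak in DAY3 replicate 2.
Elf1: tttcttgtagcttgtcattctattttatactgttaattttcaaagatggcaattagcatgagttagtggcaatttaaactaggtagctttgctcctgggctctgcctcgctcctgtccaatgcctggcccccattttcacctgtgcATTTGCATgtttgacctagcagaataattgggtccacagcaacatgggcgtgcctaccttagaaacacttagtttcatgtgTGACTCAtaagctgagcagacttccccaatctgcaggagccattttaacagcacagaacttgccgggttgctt
Cnksr1: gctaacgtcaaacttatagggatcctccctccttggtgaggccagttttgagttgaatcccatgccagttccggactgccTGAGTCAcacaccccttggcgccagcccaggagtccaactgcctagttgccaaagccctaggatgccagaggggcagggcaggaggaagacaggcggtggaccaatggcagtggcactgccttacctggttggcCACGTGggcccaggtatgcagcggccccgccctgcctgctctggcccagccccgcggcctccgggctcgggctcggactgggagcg
Plch1: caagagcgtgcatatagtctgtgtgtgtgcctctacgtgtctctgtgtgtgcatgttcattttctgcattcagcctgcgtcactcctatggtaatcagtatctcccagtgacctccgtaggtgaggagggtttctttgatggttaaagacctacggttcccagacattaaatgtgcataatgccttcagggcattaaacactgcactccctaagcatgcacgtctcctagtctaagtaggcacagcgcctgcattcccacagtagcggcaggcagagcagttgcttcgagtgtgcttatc
Gm40367: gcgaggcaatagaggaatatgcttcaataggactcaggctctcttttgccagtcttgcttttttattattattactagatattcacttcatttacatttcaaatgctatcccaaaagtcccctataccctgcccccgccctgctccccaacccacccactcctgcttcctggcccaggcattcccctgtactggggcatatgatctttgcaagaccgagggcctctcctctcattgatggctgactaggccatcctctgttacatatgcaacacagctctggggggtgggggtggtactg

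In all, 45 transient regions overlapped 54 RefSeq promoter windows, and taking 1 window for each region and each sequence once left 43 windows. They were poor in CpG: the median ratio of observed to expected CpG was 0.221, against 0.387 over all 32544 RefSeq windows. A ratio of at least 0.6 was found in 4 of the 43 (9.30%), against 36.1% of all windows. Only 24 of the 43 windows belong to protein-coding genes, and among those the share was 16.7%. The GC content was closer, with a median of 50.3% against 53.0%. The Elf1 window has 3 CpG sites and a ratio of 0.20, the Cnksr1 window 13 and 0.41, and the Plch1 window 9 and 0.49.

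Motifs were searched on both strands of the 43 windows by their letters. The SOX motif ACAATGG was in 6 windows (14.0%), against 3.68% of all windows. The octamer was in 3 (6.98%), against 1.75%, and the KLF motif GGGNGTGGC in 5 (11.6%), against 5.78%. These are letters of the motifs of Sox2, Oct4 and Klf4, and each was in a larger share of the few member windows than of all windows. The member windows are also poorer in CpG (median ratio 0.221 against 0.387), and only 24 of them belong to protein-coding genes. Windows matched for CpG or kind of gene were not compared, so what these shares reflect was not tested. The E-box, the motif of Myc, was in a smaller share, 1 window (2.33%) against 7.17%. The AP-1 motif was in 5 (11.6%), against 7.79%, and the TFAP2 motif GCCNNNGGC in 5 (11.6%), against 16.7%. No window held CATTGTNAT (a part of the joint OCT and SOX motif), the TEAD motif GGAATGT, the ESRRB motif TCAAGGTCA, the GRHL motifs AACCGGTT and AACCNGTTT, the GATA motif AGATAAG, the FOX motif TGTTTAC or the RUNX motif TGTGGTT. The SOX motif and CATTGTNAT share the letters CATTGT on one strand, and the GRHL motifs overlap each other. Over all windows those 8 motifs were held by 0.147% (AACCGGTT) to 5.29% (RUNX) each. With 43 windows these shares are descriptions, a match is not a bound site, and only the promoters among the transient regions were searched.

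The transient regions are a small branch of the chromatin that was open in the sorted cells. Peaks in both DAY6 and both DAY9 lists were found at 40843 regions, of which the 2414 are 5.91%. Of the 40843, 20249 (49.6%) had a peak in at least 1 list of each of MEF, DAY3 and ESC. Another 5358 (13.1%) had peaks also in DAY3 and ESC, 4799 (11.7%) also in ESC alone, and 4545 (11.1%) also in DAY3 alone. Only 253 (0.619%) had a peak in MEF and in neither DAY3 nor ESC. So a region with a peak in all 4 sorted lists about as often had a listed peak also in ESC alone as in DAY3 alone. Each of those groups was larger than the transient one. The DAY3 lists are shorter, with 45766 and 45497 peaks, against 86585 and 88980 in the ESC lists. These counts depend on list length, and they were not repeated with lists of equal length. By the same kind of rule, with both lists of each named stage and no list of the others, 3520 regions were open at days 3, 6 and 9, 4630 at day 9 alone, and 3442 from day 6 through ESC.

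Many regions just missed the rule. A peak in 1 additional list excluded 2557 regions, and the list was ESC replicate 1 for 680, ESC replicate 2 for 677, DAY3 replicate 1 for 512, DAY3 replicate 2 for 513, MEF replicate 1 for 135 and MEF replicate 2 for 40. The absence of a peak in 1 sorted list excluded 3404 regions, of which 1356 lacked DAY6 replicate 1, 1601 DAY6 replicate 2, 235 DAY9 replicate 1 and 212 DAY9 replicate 2. Each DAY6 list excluded more regions than any other list did, and the near misses together outnumbered the members. Leaving out DAY6 replicate 1 raised the number of transient regions to 3787, and leaving out DAY6 replicate 2 raised it to 4026.

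**Figure D1:**
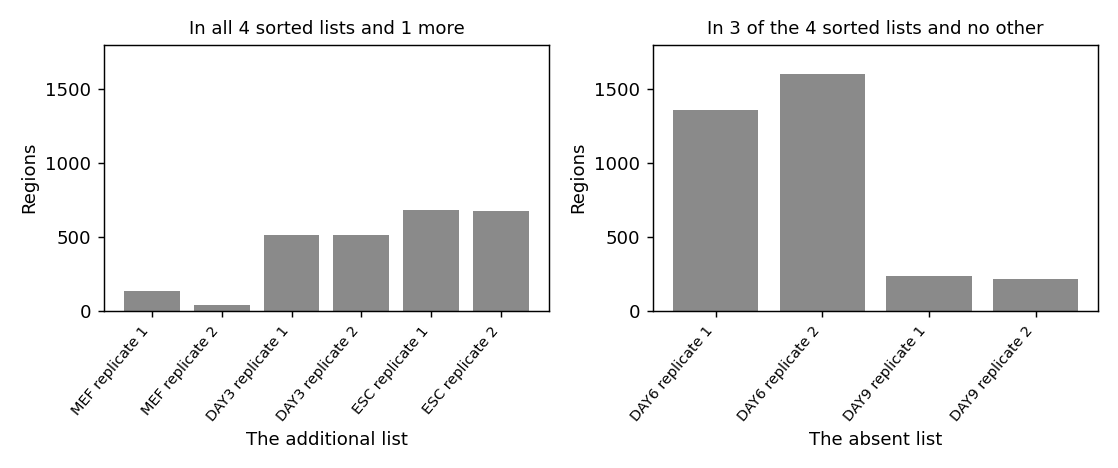
Number of regions that miss the rule by 1 list (vertical axes), by the list concerned (horizontal axes). Left, regions with a peak in all 4 DAY6 and DAY9 lists and in 1 more list, highest for the ESC lists (680 and 677). Right, regions with a peak in 3 of the 4 lists and in no other, highest for the DAY6 lists (1356 and 1601).

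The members just inside the rule had peaks at the limit of listing. With the lowest −log10 p over the 4 lists at 5.00, a member 120 kb from Ppp1r14bl (chr1:22979563-22980025) had folds of 3.59 and 4.51 at DAY6 and 2.64 and 2.63 at DAY9. More members share that limit, among them 4 in or near genes as follows: in Unc13c, which acts in synaptic vesicle release, in Ppfia4, a liprin, 19.3 kb from Copb2, a coat protein of transport vesicles, and in the protocadherin gene Pcdhb22. Just outside were tall peaks that a single further list removed. The region 276 kb from Gm46320 (chr12:106357724-106358513) had folds of 16.6 and 14.4 at DAY6 and 17.2 and 18.3 at DAY9, and a peak of fold 4.03 in ESC replicate 2. Regions by Strit1, Pcdh18 and Dlg2 were excluded by ESC replicate 2 with folds of 5.11, 6.04 and 3.61, and a region 340 kb from Prkd1 by DAY3 replicate 1 with a fold of 6.19. The rule therefore keeps weak peaks and drops some tall ones with a lower peak in a single further list.

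Peak height is given as the authors' fold, the ratio of the pileup of fragments at the peak to the pileup expected locally. The transient regions had median folds of 4.72 in DAY6 replicate 1, 4.86 in DAY6 replicate 2, 4.92 in DAY9 replicate 1 and 5.02 in DAY9 replicate 2. The 40843 regions with a peak in the same 4 lists had medians of 6.96, 7.11, 7.21 and 7.17. In each sorted library the median member was thus lower than the median of all such regions. Within its own list the median member stood at percentile 43.4 in DAY6 replicate 1, 40.6 in DAY6 replicate 2, 55.8 in DAY9 replicate 1 and 56.8 in DAY9 replicate 2. The lists differ in length and in the lowest fold they hold, so these percentiles show no change between stages. Of the 2414 members, 11 had a fold of at least 10 in all 4 lists, 454 (18.8%) had at least 5, and 409 (16.9%) had a fold under 3 in at least 1 list. Their peaks coincided between libraries: 2367 (98.1%) had exactly 1 peak in each of the 4 lists, and the median distance between peak centres was 50 bp for the DAY6 pair and 33 bp for the DAY9 pair.

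**Figure D2:**
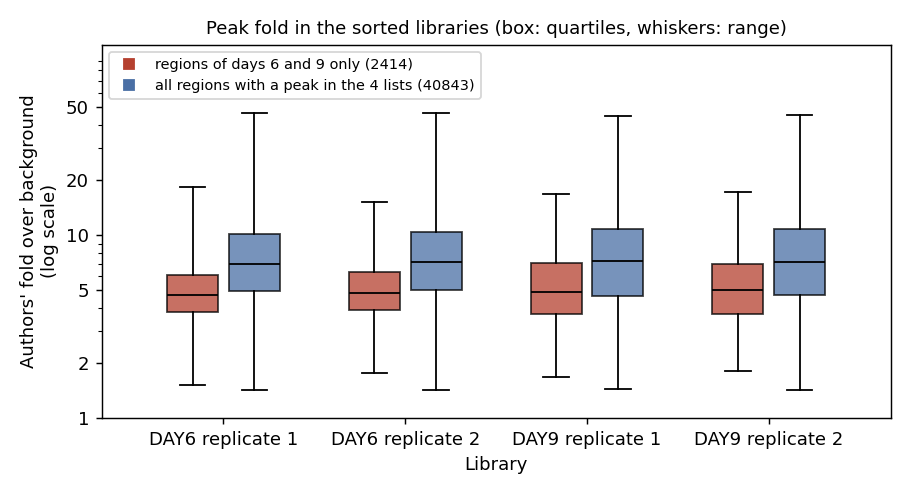
The authors' fold over the local background (vertical axis, log scale) in each DAY6 and DAY9 library, for the 2414 transient regions and for all 40843 regions with a peak in the 4 lists. Boxes are quartiles with the median as a line and whiskers reach the lowest and highest value; the medians of the transient regions lie between 4.72 and 5.02, below those of all such regions in every library.

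A region without a listed peak is not shown to be closed, since a list holds only peaks above a limit that moves with depth. No deposited −log10 p was below 5.00, and the background pileup, a measure of relative depth, ran from 2.327 in DAY6 replicate 2 to 8.322 in MEF replicate 2. At such backgrounds the lowest fold a list could hold was between 2.57 (MEF replicate 2) and 3.40 (MEF replicate 1) in the 6 MEF, DAY3 and ESC lists. The lowest fold of 1600 members (66.3%) was above 3.40, so a peak of the same height over that background would have been listed there unless it was removed after calling. Such removal took place, because the peak numbers have gaps: 58.2% to 75.9% of the numbers of a list remained. A member whose neighbouring listed peaks have consecutive numbers leaves no room for a removed peak. That was so for 971 and 950 members in the MEF lists, 615 and 612 in the DAY3 lists, and 790 and 1100 in the ESC lists. In all 6 lists it held for 23 members (0.953%), and in none of them for 275 (11.4%). The absence of a call is thus known for nearly all members only as the absence of a listed peak.

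The tallest members by their lowest fold lay away from known gene starts. The first, at chr16:12878648-12879503 and 117 kb from the predicted gene LOC108167340, had folds of 13.7 and 14.7 at DAY6 and 12.8 and 12.0 at DAY9, with pileups of 79, 70, 131 and 126 fragments. A region 3.20 kb from Fam177b (chr1:183250431-183251104) had 14.1 and 13.1 at DAY6 and 14.3 and 11.8 at DAY9. Another, 5.63 kb from Ly6h, which encodes a surface protein of the Ly6 family, had 18.4 and 11.3 at DAY6 and 13.5 and 10.9 at DAY9. The folds of the stages overlapped in the latter 2, and in the first both DAY6 folds were above both DAY9 folds. Inside BC035044 the folds were 13.3, 11.2, 12.7 and 13.8 in the order of DAY6 and then DAY9 replicates. Inside Pld1, a phospholipase D, they were 11.0, 10.9, 10.5 and 13.0, and inside Mnd1, which acts in meiotic recombination, 10.3, 11.4, 10.9 and 12.3. The remaining members of the 10 tallest lay 567 kb from the netrin receptor gene Dcc, 2.71 kb from the reductase gene Cyb5r4, 63.1 kb from Nkain2 and 1.36 kb from Pih1d2. The Pih1d2 region had the highest pileups of the 10 at DAY9, 366 and 400, at folds of 12.4 and 12.4. None of the 10 contained a known coding start, and the nearest known one was at least 8.17 kb (Clec2i) away for those off chromosome 18. Not every start is known. For the Ly6h region the nearest known start was that of Ly6f, 307 kb away, although the Ly6h gene, 5.63 kb away, spans only 4.73 kb.

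Between day 6 and day 9 the members differed in both directions. Both DAY9 folds were above both DAY6 folds in 724 members (30.0%, exact Clopper-Pearson 95% interval 28.2 to 31.9%), against 28.9% of all regions with a peak in the 4 lists. Both DAY9 folds were below both DAY6 folds in 646 (26.8%), against 24.0%, and in 1044 (43.2%) the folds of the stages overlapped. These shares are near the background, and the median log2 ratio of the stages was 0.00 in the members. Regions open at days 3, 6 and 9 were higher at DAY9 in 17.4% and lower in 40.1%, and regions open from day 6 through ESC were higher in 43.6% and lower in 14.4%. By these shares the members stood between the 2 sets, which was not tested. With 2 libraries against 2 an exact test cannot give a p below 0.333, so no test was made. Moreover, the spread between the DAY9 libraries was close to that of counting alone (ratio 1.42 at pileups of 100 to 200, where counting alone gives 1, against 3.62 for DAY6), and they count as 1 sample. Intervals on shares cover only the counting of regions, which are not replicates.

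The members with the largest ratio of DAY9 to DAY6 were near the limit of listing at DAY6 and tall at DAY9. A region overlapping an end of the gene of Rbbp8, a DNA end resection factor, had folds of 3.59 and 4.81 at DAY6 and 14.7 and 15.6 at DAY9. Inside Vsig10 (chr5:117330309-117330988) the folds were 3.59 and 3.91 at DAY6 and 11.7 and 13.7 at DAY9, and inside Rras2, a Ras-related GTPase, 3.59 and 4.21 against 12.6 and 11.9. Inside Runx2, the regulator of bone formation, at chr17:44547870-44548678, they were 4.04 and 4.51 at DAY6 and 14.4 and 12.0 at DAY9. In each of these the stages lay far apart, with every DAY9 value more than 2-fold above every DAY6 value. A region 97.2 kb from Pcbd1 had 3.59 and 4.21 at DAY6 and 12.2 and 11.4 at DAY9. The largest ratios in the other direction were smaller. Inside Srpk2, a kinase of splicing factors, folds were 8.98 and 5.41 at DAY6 and 2.76 and 2.63 at DAY9. They were 6.06 and 10.9 against 3.72 and 2.99 inside DXBay18, 6.96 and 8.72 against 2.88 and 3.46 inside Gm14391, and 6.29 and 8.12 against 2.76 and 3.22 inside Nceh1, a cholesterol ester hydrolase. Near Kynu, an enzyme of tryptophan breakdown, they were 7.19 and 8.42 against 2.88 and 3.46. The DAY9 folds of these 5 were near the limit of listing, and a peak below that limit would not be in the set.

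**Figure D3:**
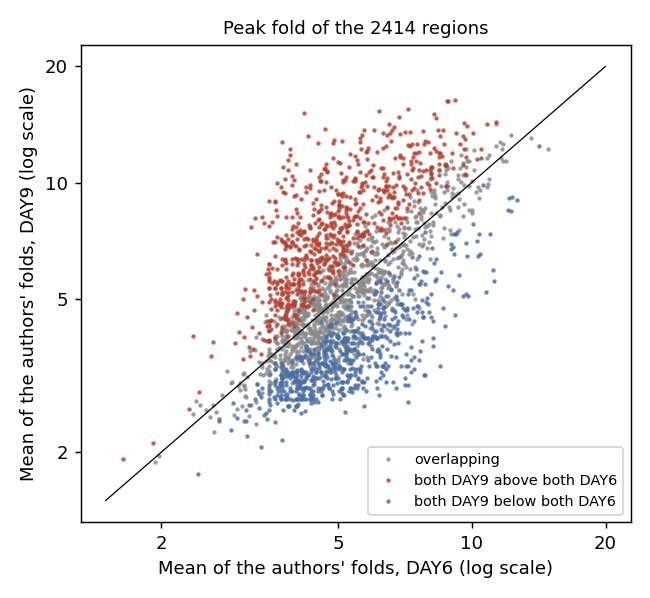
Mean of the authors' folds in the DAY9 lists (vertical axis) against the mean in the DAY6 lists (horizontal axis), both on log scales, for the 2414 transient regions, with the line of equality. Colours mark the 724 regions with both DAY9 folds above both DAY6 folds, the 646 with both below and the 1044 that overlap; the points end at low folds where peaks are no longer listed.

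Heights agreed less between the DAY6 libraries than between the DAY9 libraries. Over the 2414 members the correlation of log2 folds was 0.50 for the DAY6 pair and 0.87 for the DAY9 pair, and over all 40843 regions of the 4 lists it was 0.81 and 0.94. The members span a narrower range of folds, which lowers a correlation, and share their library and its depth. The standard deviation of the difference of log2 folds was 0.47 in the DAY6 pair and 0.31 in the DAY9 pair, and 0.58 between DAY6 replicate 1 and DAY9 replicate 1.

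The transient regions were distal. A start of a protein-coding gene lay within 1 kb of 51 of the 2329 members off chromosome 18 (2.19%, exact interval 1.63 to 2.87%), against 7.17% of all regions. Among all regions with a peak in the 4 sorted lists the share was 26.3%. With the starts of all RefSeq genes, noncoding ones included, the share was 3.95% in the members and 9.28% in all regions. For coding starts it was 1.48% in the regions open at days 3, 6 and 9, 2.30% in those open at day 9 alone and 6.25% in those open from day 6 through ESC. The share was thus between 1.48% and 2.30% in the 3 sets without an ESC peak, each below the set that has one. These differences were not tested. A start was inside 25 members, the median distance to a start was 54.8 kb, against 47.2 kb in all regions, and 35.0% were over 100 kb from a start, against 33.4%. Apart from the share at starts, members were spread over distances much as all regions were: 32.6% against 31.0% lay 10 to 50 kb from a start. Gene bodies held 1229 members (50.9%), against 51.3% of all regions, and the median width was 639 bp (range 282 to 2119 bp), against 509 bp. These positions rest on starts for 17492 of 21900 coding genes (79.9%), with none on chromosome 18, and exons and introns were not analysed here.

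**Figure D4:**
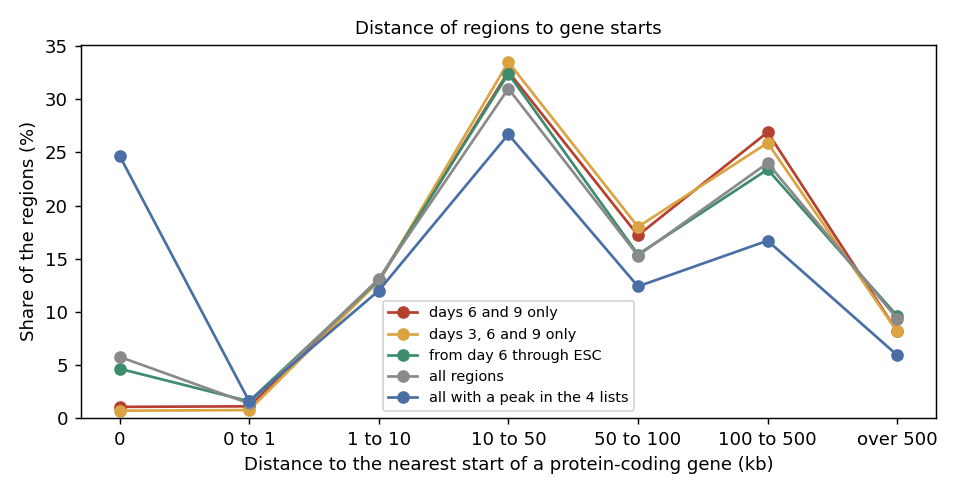
Share of regions (vertical axis, percent) by distance to the nearest start of a protein-coding gene (horizontal axis, kb, unequal bins, 0 meaning that the start is inside the region), for the transient regions and 4 other sets. At 0 kb lie 1.07% of the transient regions, against 5.78% of all regions and 24.7% of those with a peak in the 4 lists; beyond 10 kb the lines of the transient regions and of all regions run close together.

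None of the 51 members at starts was at a known start of a listed pluripotency gene, but not every listed gene could be met. No start is known on chromosome 18, where Fbxo15 lies. For the Klf5 member the nearest known start was that of Dis3, 357 kb away, although the Klf5 gene was 143 kb away. How many of the listed genes have a known start was not counted. By the lowest fold over the 4 lists, the first of the 51 members was at Elf1 (chr14:79515077-79516056), whose promoter is printed above, with folds of 7.41 and 9.44 at DAY6 and 10.7 and 12.6 at DAY9. The Cnksr1 region had 8.76 and 5.41 at DAY6 and 13.7 and 13.4 at DAY9, and the Plch1 region 5.39, 5.71, 5.64 and 5.37 in the same order. The DAY9 folds were above the DAY6 folds at Elf1 and Cnksr1 and overlapped them at Plch1. Lair1, an inhibitory receptor of leukocytes, had a region 0.642 kb from a start with folds of 8.72, 6.50, 11.5 and 10.1. At the start of L1cam, a neuronal adhesion molecule, the folds were 4.49 and 4.51 at DAY6 and 7.64 and 9.15 at DAY9, and at Fam50b 4.49 and 4.81 against 10.4 and 11.3. At both, the stages were further apart than the replicates of either stage. The others of the first 10 by that measure were at Gm21188, at Aldh1a7, an aldehyde dehydrogenase, 0.420 kb from a start of Kcnj12, a potassium channel, and 0.930 kb from Trp53rkb, a kinase gene. The Trp53rkb region (chr2:166792159-166792837) is among the 23 members where no list of the other stages has room for a removed peak, and its folds were 9.82, 4.44, 6.12 and 5.98. Further starts inside members were those of Dcx and Septin9, of the cytoskeleton, of the gap junction genes Gja5 and Gjb1, of the dopamine receptor gene Drd4 and of the signalling genes Wnt6 and Sema4a, which were named after their values were seen.

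The genes nearest to members were many and mostly had 1 each. Assigning each member to the coding gene that holds it or lies nearest gave 1961 genes, of which 1628 had 1 member and 12 had 5 or more. Adgrl2, an adhesion receptor, had 7 among 182 regions of all kinds assigned to it, with lowest folds from 2.14 to 6.13. Macrod2, a gene of 1998 kb, had 6 of 143, and Zfp407 6 of 64. The genes with 5 were Cadm1, Cdh13, Cntn5, Nrxn3 and Tenm4, which encode adhesion or synaptic proteins, the phosphodiesterase gene Pde4d, the transcription factor gene Tshz2 and Xxylt1, a xylosyltransferase. Xxylt1 spans 126 kb and Cadm1 332 kb, while the neuronal genes Cntn5 and Nrxn3 span 1271 and 1612 kb. Not all assigned members lay inside the gene: 1 of 7 did for Adgrl2 and 0 of 5 for Cntn5, against 5 of 6 each for Macrod2 and Zfp407. For the other genes with 5 members, 3 to 5 lay inside. Long genes with much intergenic space around them collect many regions of every kind. The counts of members per gene therefore say little without the number of all regions beside them. Among the genes with 5 members that number was 190 for Tenm4, 169 for Pde4d, 120 for Cntn5, 95 for Tshz2, 90 for Nrxn3, 86 for Cdh13, 58 for Cadm1 and 49 for Xxylt1. Gm40363, with 6 of 19, belongs to the repeated units described below.

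Of 152 genes on 9 lists for pluripotency, epithelium, mesenchyme, other lineages and signalling, 21 had a member, 25 members in all. That was 0.813% of the 3074 regions assigned to these genes, against 1.16% of all regions, and 4.62% of their 541 regions with a peak in the 4 sorted lists, against 5.91%. By list the share of those 4-list regions ran from 0 of 44 for the trophoblast genes to 3 of 33 (9.09%) for surface ectoderm and keratinocyte genes. Each list rests on 5 members or fewer, and no share was tested. Of 22 pluripotency genes, 5 had 1 member each: Esrrb (31.2 kb upstream), Fbxo15 (15.4 kb away), Klf5 (143 kb away), Nr5a2 (inside) and Sox2 (205 kb upstream). They were weak: the Sox2 region (chr3:34443887-34444523) had folds of 3.59 and 3.61 at DAY6 and 3.12 and 3.70 at DAY9, and the Esrrb region (chr12:86329471-86329941) 4.27 and 4.21 against 3.48 and 2.99. Both lay close to the limit of listing. In the Nr5a2 gene (chr1:136945331-136945780) the folds were 3.78, 5.49, 3.02 and 3.74. Klf5 and Fbxo15 had 1 DAY6 library well above the other, 8.98 against 3.61 and 9.76 against 3.91.

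Among 22 epithelial genes, 3 had a member. The region 9.74 kb from Ovol1, a regulator that holds the epithelial state (chr19:5538500-5539401), had 8.98 and 7.21 at DAY6 and 10.1 and 11.7 at DAY9, and in 5 of the 6 other lists there is no room for a removed peak. The regions of Grhl1, a regulator of epithelial junction genes, and of the desmosomal gene Dsp were lower, with lowest folds of 2.88 and 3.59. The DAY9 folds were above the DAY6 folds at Ovol1 and below them at Grhl1 and Dsp. Of 14 surface ectoderm and keratinocyte genes, Krt6a, a stress keratin, had a region 0.277 kb away (chr15:101688926-101689651) with 6.06 and 5.71 at DAY6 and 10.4 and 10.9 at DAY9. Tfap2a and Trp63, regulators of early and stratified epithelium, had regions 67.7 and 95.2 kb away with lowest folds of 2.55 and 2.52. Of the 6 members on these lists, the Krt6a and Ovol1 regions alone had both DAY9 folds above 10.

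Of 22 signalling genes, 4 had members. The region 17.2 kb from Wnt5a, a Wnt ligand (chr14:28544664-28545507), had folds of 6.29 and 7.44 at DAY6 and 11.4 and 9.34 at DAY9. Axin2, an inhibitor and target of Wnt signalling, had a region within the gene (chr11:108949199-108950293) with 8.20 and 6.61 at DAY6 and 4.32 and 4.42 at DAY9. The stages differed in opposite directions at these 2 genes and overlapped at neither. Bmp7, a BMP ligand, had 2 members, 78.0 and 14.8 kb away, the former with 4.33 and 5.71 at DAY6 and 8.84 and 8.70 at DAY9. Fgfr2, an FGF receptor, had 1 inside the gene with 3.21, 2.96, 5.53 and 5.09. In the lineage lists, the neural gene Pou3f1 had 2 members, Col4a1 of the basement membrane 2, and Foxa2 of endoderm 1. The germ line genes Dazl and Kit had 1 each, and the mesenchymal gene Cdh2 had 2, with lowest folds of 2.75, 2.87, 2.88 and 2.88. These 4 were near the limit of listing.

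MicroRNA hairpins lay within 10 kb of 25 members (1.04%), against 1.12% of all regions. One member (chr4:156063896-156064658) was 8.15 kb from Mir200b, 8.91 kb from Mir200a and 9.91 kb from Mir429, a cluster of microRNAs that maintain epithelial identity, with folds of 4.40 and 3.83 at DAY6 and 3.74 and 3.35 at DAY9. Another was 4.21 kb from Mir34a, a p53 target, with 3.37, 3.87, 3.38 and 3.32. Both were weak at both stages. Mir26a-1 had 2 members, 9.64 and 1.51 kb away, and Mir153 had 1 at 0.342 kb with 5.08, 3.91, 4.77 and 5.02. A member 4.02 kb from Mir7057 was the tallest at DAY9 of the 25, with 5.84 and 7.07 at DAY6 and 13.0 and 13.5 at DAY9. The member 1.57 kb from Mir206 and 1.76 kb from Mir133b had 4.04 and 5.71 at DAY6 and 2.76 and 3.22 at DAY9. Near Mir297-1, 4.09 kb away, the folds were 10.1 and 7.51 at DAY6 and 10.0 and 9.15 at DAY9. The named microRNAs are a choice from those within 10 kb and show no shared theme.

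Most transient regions stood alone on the chromosome. The median gap between neighbouring members was 236 kb, and 446 members (18.5%) lay within 50 kb of another. The share was 26.8% among the 3520 regions open at days 3, 6 and 9, and 28.3% among the 4630 open at day 9 alone. Among the 3442 open from day 6 through ESC it was 22.7%. Without DAY6 replicate 2 the share in the members was 28.9%, among 4026 members. A larger set lies closer together by its number alone, so these shares are not directly comparable. The 446 formed 188 runs of 2, 19 of 3, 1 of 6 and 1 of 7, with 1968 members alone. Another member lay within 10 kb of 127 members (5.26%), while 2.76% of all regions had a member that near. The 127 include members of the tandem array described below. Similar sets were also nearer to their own kind than all regions were. The shares were 8.38% against 4.27% for regions of days 3, 6 and 9, and 7.06% against 4.12% for those open from day 6 through ESC. The nearest region of any kind was itself a member for 57 members (2.36%), against a share of 1.16% of members among all regions. For nearly all members the next listed region thus had another pattern, although the share with a member within 10 kb was above that of all regions. How often a member was the nearest region over all regions was not computed. A region open at day 9 alone was within 10 kb of 9.03% of members, against 5.32% of all regions, and a region open at days 3, 6 and 9 within 10 kb of 6.09%, against 4.27%. A region open in both ESC lists was that near to 43.3%, against 45.8%, and one open in both MEF lists to 35.3%, against 40.3%. Regions open from day 6 through ESC were within 10 kb of 4.85%, against 4.12%. The shares near other transient regions and near regions open from day 6 through ESC were thus above those of all regions. The shares near regions open in both MEF or both ESC lists were below them, with no test made. Regions open from day 6 through ESC were also above all regions near members (3.57% against 2.76%) and near regions of day 9 alone (7.32% against 5.32%). Near regions of days 3, 6 and 9 they were below (3.66% against 4.27%).

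The 19 runs of 3 spanned 12.8 to 71.7 kb, and the 3 shortest are named. Near Mn1, a transcriptional coregulator, 3 members lay within 12.8 kb (chr5:111669072-111681858), with lowest folds between 2.62 and 4.46, and the span holds 5 regions in all. Near Polr3g, a subunit of RNA polymerase III, 3 lay within 14.9 kb (chr13:81678225-81693118), with lowest folds between 3.12 and 3.74, with 6 regions in the span, and near Zfp407 3 lay within 16.6 kb with 2.66 to 5.28. The members were weak to moderate in all of these, and between them lay regions of other patterns.

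The largest runs, of 7 and 6 members, are 2 stretches of a tandem array on chromosome 6 (chr6:47738506-47771022 and chr6:47657953-47680042). Between its 13 members, the 10 steps within a stretch that skip no unit measured 4268 to 5581 bp (median 4338 bp), and the others were longer. They alternated with 16 regions that had a peak in all 10 lists, and such a region came a median of 1213 bp after the member. The regions open in all lists had folds of 3.27 to 10.4. The members had folds of 1.52 to 3.25 at DAY6 and 1.82 to 3.59 at DAY9, although their pileups were high, with medians of 155 and 89 at DAY6 and 409 and 418 at DAY9. The expected local pileups were high too, with medians of 67.2, 42.4, 177 and 176. The members therefore had modest folds over a tall local background, and most units held 1. Since the printed promoter of Gm40367 recurs without a change in 2 other members, and with an edit distance of 4 in that of Gm52861, reads from those identical windows cannot be told apart by sequence. The same 300 bases also stand at a start of Gm40369, in an array region that missed the rule. That region had a peak of fold 2.42 in DAY3 replicate 2. The other members of the array were not compared by sequence, and how the authors placed repeated reads is not given in the sources used here, so the 13 are uncertain as separate regions. The Gm40369 region is among 4 regions of the array that missed the rule by having a peak in DAY3 or lacking one in DAY6. Without the 13 members of the array the members number 2401, the largest run has 3 members, and 433 lie within 50 kb of another.

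**Figure D5:**
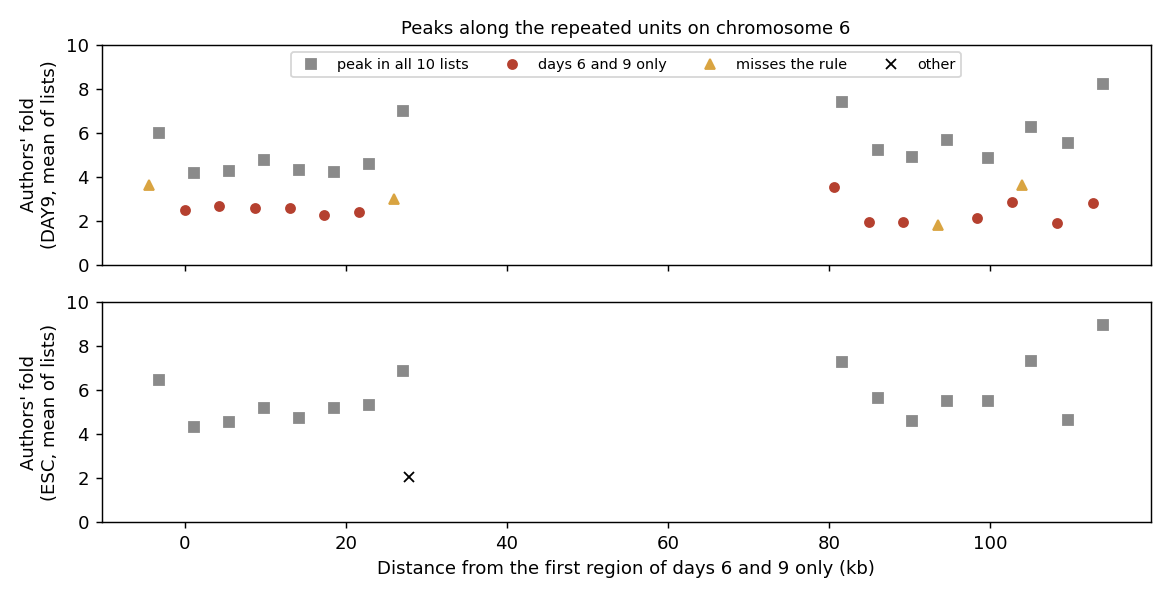
Mean of the authors' folds over the lists that hold a peak (vertical axes) at DAY9 (top) and in ESC (bottom), along the tandem array by distance from its first transient region (horizontal axis, kb). Red circles are the 13 transient regions, grey squares the 16 regions with a peak in all 10 lists, triangles 4 regions that miss the rule; the circles recur at regular steps below the squares at DAY9 and have no peak in ESC.

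Members were spread over all chromosomes. Their share of all regions was between 0.599% (Y, 2 members) and 1.41% (X, 77 members), and among the autosomes it was lowest on chromosome 8 (0.778%, 89 members) and highest on chromosome 17 (1.39%, 116 members).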

How the data were processed

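Peaks were listed by the authors for each library, not for pooled replicates. Per the submitters' processing notes, Bowtie2 2.3.2, MACS2 2.1.1, deepTools 2.3.6 and the mm10 genome were used, and the filters that removed peaks are not given in the sources used here. The lists as deposited give a score, a fold (a linear ratio) and −log10 p- and q-values, and no read depth. Summits are not given in the deposited lists. Peaks were merged, counted and compared with Python 3.11.15, pandas 2.3.3, numpy 2.4.6 and SciPy 1.17.1. The best peak of a list stood for a region. Pileups were recovered as the whole number that gives both fold and −log10 p (tolerance 0.01), and the steps were checked on lists with known answers. Genes and promoters are from RefSeq GRCm38.p6: members went to the coding gene that holds them or is nearest by its body, because starts are known for 17492 of 21900 genes, in place of the nearest start that had been planned. No genome was used, so motifs were searched in promoter windows alone.

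No result comes from a test. DAY3 replicates (noise ratio 1.33) and DAY9 replicates (1.42) were near counting noise, and each pair is counted as 1 sample. Named were the 10 members with the highest lowest fold over the 4 lists, the genes with the most members, the largest runs, all listed genes with a member, the 10 tallest members within 1 kb of a start, the members and near misses at the edge of the rule, and the 5 largest ratios of mean DAY9 to mean DAY6 fold in each direction among regions whose stages did not overlap; the last, and the microRNAs, were chosen after values were seen. The members and lists were chosen with earlier results of these data known. The labels do not say whether replicates are separate cultures.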

Additional observations from a re-analysis of the deposited data

How the results depend on the processing

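No paired analysis was possible because no result comes from a test. Windows round summits and motifs in the regions were not run, since the lists give no summits and no genome was used. With 45497 peaks per list the members numbered 1584, 2.99% had a start within 1 kb, 16.1% had another member within 50 kb, and 40.5% had both DAY9 folds above both DAY6 folds. With the better-scoring 50% of each list these were 1571 members, 13.2% and 32.0% for the last 2 shares. Requiring peaks to cover 50% of a region gave 2738 members and moved no share beyond its interval. Leaving out 1 library gave 2460 to 4026 members, 2.06 to 2.64% with a start, 19.1 to 28.9% close to another and 28.5 to 38.2% higher at DAY9, and only the DAY6 libraries moved the count by over 1.5 times (3787 and 4026). Without a DAY6 or DAY9 library, 1 library stood against 2, and being higher at DAY9 is then an easier condition to meet. Those settings gave 35.1 to 38.2% higher at DAY9, and the others 28.5 to 31.9%, so the 2 ranges are not alike in measure. Without DAY6 replicate 2 the share close to another also moved by over 1.5 times (28.9%), and that share depends on the number of members. A start within 2.5 kb was found for 4.38%, a neighbour within 20 kb for 9.24% and within 100 kb for 30.0%, and by rank within the list 47.1% were higher at DAY9. The DAY9 lists are longer and deeper, so the rank shows no change between stages, and all regions with a peak in the 4 lists were higher by rank in 41.6%.

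Alternatives added after seeing the data were these. Starts of all RefSeq genes gave 3.95% within 1 kb, against 9.28% of all regions. The 1600 members above the lowest fold of every other list had another within 50 kb in 12.7% and were higher at DAY9 in 38.1%. That cut, at a fold of 3.40, is near the lowest fold listed at background at DAY6 (3.37 and 3.61). It is above that at DAY9 (2.64 and 2.63). The cut thus removes members low at DAY9 more readily, so the 38.1% shows no change between stages. The same share over all regions with a peak in the 4 lists was not computed under this cut. The 431 members with no room for a removed peak in at least 1 list of each other stage gave 3.15% with a start, 13.5% close and 32.3% higher. Windows of 100 bp on either side of peak centres, and leaving out the repeat array, moved nothing beyond its limit. In every setting run with the 1 kb limit and coding starts the share of members at starts stayed below 7.17%, the share of all regions in the main setting. The share of all regions was not computed again under these settings. Depth limits which weak peaks are listed, and is known only through the background pileup.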
